A study of Mus musculus with 10 samples.

Results

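The Notch receptors Notch1, Notch2, Notch3 and Notch4, the ligands Jag1, Jag2 and Dll1, and the target genes Hes1, Hey1 and Heyl were followed across all libraries of the β-ecdysterone experiment. Each was found by its gene symbol in the deposited gene table, and 10 of its 29583 genes were taken in this way. The cells were MC3T3-E1, an established mouse line of osteoblast precursors from newborn C57BL/6 skull, although the source field of the labels calls them stem cells of bone marrow. They were cultured in standard medium with β-ecdysterone, a plant and insect steroid, at 100, 150 or 200 μM (treated) or at 0 μM, for 5 or 10 days, and each dose and day gave 1 library. A further 2 libraries, A-5 and B-4, are called untreated and carry no time, so they entered no main comparison.

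Notch receptors are transmembrane proteins that bind Jagged or Delta-like ligands on a neighbouring cell. Binding leads to cleavage of the receptor by ADAM proteases and then by γ-secretase, and the released intracellular domain joins the DNA-binding protein RBPJ and Mastermind co-activators to switch on HES and HEY repressors. In the osteoblast lineage, Notch signalling is known to hold back maturation through HES and HEY proteins, which can bind RUNX2, and JAG1 is a ligand known for its role in skeletal progenitors.

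The libraries held 27108562 to 58218009 counts. Of the treated libraries 3 lay above 40000000 counts and 3 below it, and the 0 μM library of day 5 lay above it while that of day 10 lay below. Nothing in the labels ties the libraries to separate cultures of a group, so p-values measure the spread between single libraries of different doses and days. Levels are given as CPM (counts scaled to library size), scaled over all 10 libraries, and 3 counts corresponded to between 0.0502 and 0.118 CPM. Of 10 osteoblast markers, the collagen genes Col1a1 and Col1a2 were abundant in every library, at 3345 CPM or more, and Runx2 lay at 88.05 CPM or more, whereas Alpl had 0 and 2 counts at 0 μM. In bulk RNA, fewer cells of a type and less RNA per cell cannot be told apart.

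The genes lie on separate loci of GRCm38 (GENCODE M21 annotation). Notch1 occupies chr2:26457903-26516663 on the minus strand, Notch2 chr3:98013527-98150361 on the plus strand, and Jag2 chr12:112907819-112929776 on the minus strand. The annotation places other genes over Notch1, Notch2, Notch3, Notch4, Jag2 and Dll1, but none of these overlapping genes has a row of its own in the deposited table, and whether reads were counted by strand is not given in the sources used here. Promoters were read from RefSeq (GRCm38.p6) as the 250 bases before each annotated start, and 7 of the 10 genes had an entry, with 8 windows in all since Dll1 had 2. The upstream windows of Notch1 and Jag2, which rose in treated cells, are shown with that of Notch2, which did not pass the test, and capitals mark GGGCGG, the core of the GC box bound by SP and KLF factors, on either strand. The Notch1 window is chr2:26503823-26504072 on the minus strand, that of Jag2 is chr12:112929496-112929745 on the minus strand, and that of Notch2 is chr3:98013288-98013537 on the plus strand. The RefSeq starts differ from the outer GENCODE starts. The Notch1 and Jag2 windows therefore lie inside the gene spans given above, and the end of the Notch2 window overlaps its span.
Notch1: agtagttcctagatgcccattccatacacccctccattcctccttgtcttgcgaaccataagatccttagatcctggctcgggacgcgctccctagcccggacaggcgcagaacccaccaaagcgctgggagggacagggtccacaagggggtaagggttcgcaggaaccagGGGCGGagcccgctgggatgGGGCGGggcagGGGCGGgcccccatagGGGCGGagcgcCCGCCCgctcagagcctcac
Jag2: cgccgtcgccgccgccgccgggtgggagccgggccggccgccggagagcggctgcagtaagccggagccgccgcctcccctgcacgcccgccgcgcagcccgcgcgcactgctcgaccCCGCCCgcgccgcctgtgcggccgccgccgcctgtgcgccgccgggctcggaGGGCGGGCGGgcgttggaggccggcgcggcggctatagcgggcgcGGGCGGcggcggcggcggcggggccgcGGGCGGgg
Notch2: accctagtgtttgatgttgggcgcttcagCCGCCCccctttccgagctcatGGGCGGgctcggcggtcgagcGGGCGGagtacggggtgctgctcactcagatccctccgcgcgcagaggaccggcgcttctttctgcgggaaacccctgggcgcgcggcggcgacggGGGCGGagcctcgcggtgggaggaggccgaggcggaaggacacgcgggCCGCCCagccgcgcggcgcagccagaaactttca

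GGGCGG was found 5 times in each of the Notch1, Jag2 and Notch2 windows and 4 times in that of Notch3, and it was not found in those of Notch4, Jag1 and Dll1. In Jag2, 2 of the 5 matches overlap. The letters occur in 32.7% of the 32851 mouse promoter windows of the same length, and the Notch1 and Notch2 windows held the same number. TGGGAA, the core letters of an RBPJ site, was found on neither strand in any of the 8 windows and occurs in 21.6% of all windows. TGTGGT, the core of a RUNX site, was likewise in 0 of the 8 windows and in 14.0% of all. The GC content was 66.0% for Notch1, 72.0% for Notch2 and 87.2% for Jag2, beside a median of 52.4% over all windows.

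The 10 genes differed widely in level when compared per length, in the FPKM (fragments scaled to transcript length and library size) that the authors deposited. Notch2 had the highest level in every library, from 25.5 to 36.2 FPKM. Notch1 was next in treated cells, at 23.7 ± 2.67 FPKM (SD, n = 6), but at 0 μM its 9.03 and 8.60 FPKM lay beside the 9.21 and 10.3 FPKM of Jag1. Jag1 ranged from 5.42 to 15.9 FPKM over the 10 libraries and was the main ligand, with between 93.3% and 97.8% of the summed FPKM of the 3 ligands. Notch3 followed at 0.657 to 2.42 FPKM and Hes1 at 0.0452 to 1.52 FPKM. Dll1, Notch4 and Jag2 had means over all libraries of 0.250, 0.249 and 0.157 FPKM and ranges that overlapped, so no order can be read among them. Hey1 and Heyl, with means of 0.0192 and 0.00522 FPKM, were near or at 0 throughout.

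**Figure D1:**
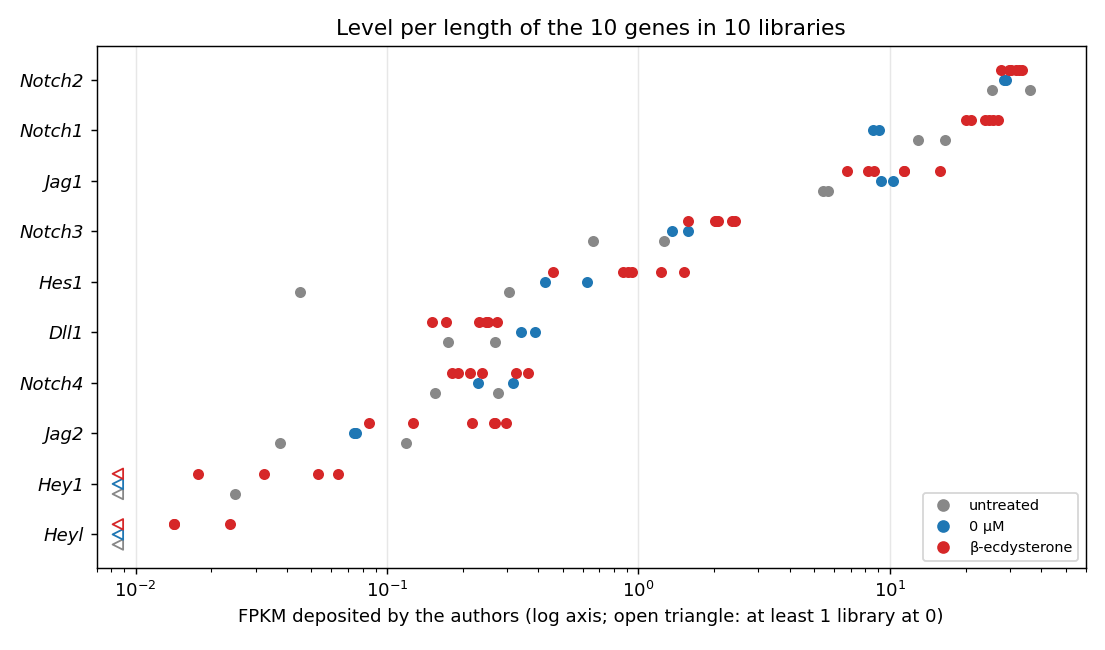
Deposited FPKM on a log axis for each of the 10 genes, ordered by their mean over 10 libraries, with 1 point per library coloured by group and open triangles for libraries at 0. Notch2 leads in every library, Notch1 lies beside Jag1 at 0 μM and above it in treated cells, and Dll1, Notch4 and Jag2 overlap below 0.4 FPKM.

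The first comparison asked which of these genes differed between cells with β-ecdysterone and cells at 0 μM. Among 8 genes with enough counts to be tested, Notch1 and Jag2 rose and none fell, where called means a log2 change beyond 1 with an adjusted p under 0.05 from edgeR's quasi-likelihood test, fitted over 16794 genes with day as a covariate. Over all genes tested, 13.4% were called higher and 5.98% lower. With no limit on the fold, Notch3 and Hes1 joined them, giving 4 of 8 higher and 0 lower, beside 22.6% of all genes higher and 20.8% lower. The median log2 change was 0.35 over the 8 genes and 0.05 over all genes. Hey1 and Heyl did not pass the filter on low counts and have no test.

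Notch1, a receptor of the canonical pathway, showed the clearest difference among the receptors. At 0 μM it measured 93.3 CPM on day 5 and 89.7 CPM on day 10. In treated cells it measured 275, 215 and 264 CPM on day 5 at 100, 150 and 200 μM, and 277, 222 and 288 CPM on day 10 in the same order. All 6 treated libraries lay above both at 0 μM, with no overlap, and the lowest treated values on each day were those at 150 μM. The library at 150 μM was also the deepest of each day. The untreated libraries lay between these groups, at 133 CPM in A-5 and 177 CPM in B-4. Notch1 was 2.79-fold higher in treated cells (log2 change 1.48 ± 0.14 SE, edgeR adjusted p = 4.3e-05). The log2 change was 1.42 ± 0.21 on day 5 (edgeR adjusted p = 0.00137) and 1.54 ± 0.21 on day 10 (edgeR adjusted p = 0.000603). The ratio of treated mean to 0 μM was 2.59 among libraries above 40000000 counts and 3.03 among those below it, with 3 treated and 1 at 0 μM in each class. The library at 0 μM is of day 5 in the deeper class and of day 10 in the other. In these ratios, here and for the genes below, depth therefore cannot be told apart from day. Leaving out each library in turn gave log2 changes of 1.41 to 1.54, all called. Against A-5 and B-4 alone the log2 change was 0.72 (edgeR adjusted p = 0.0169), under the fold limit.

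Notch2, the most abundant receptor, moved little. It measured 333 and 329 CPM at 0 μM and 342 to 417 CPM in treated cells, with a median of 364 CPM. The treated libraries all lay above those at 0 μM but by a small margin, and the untreated libraries, at 292 and 436 CPM, spanned the whole range. The log2 change of 0.16 ± 0.10 did not pass the test (edgeR adjusted p = 0.243).

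The balance of these receptors can be read within each library, where depth and scaling cancel. The ratio of Notch1 to Notch2 counts was 0.280 and 0.273 at 0 μM. It was 0.727, 0.621 and 0.755 on day 5 and 0.663, 0.650 and 0.725 on day 10 in treated cells at 100, 150 and 200 μM. The groups did not overlap, and the untreated libraries again stood between them at 0.456 and 0.407. Per length, Notch1 made up 22.6% and 22.3% of the summed FPKM of the 4 receptors at 0 μM and between 39.1% and 43.6% in treated cells. Notch2 remained the larger share in every library, at 52.2% to 56.7% in treated cells.

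**Figure D2:**
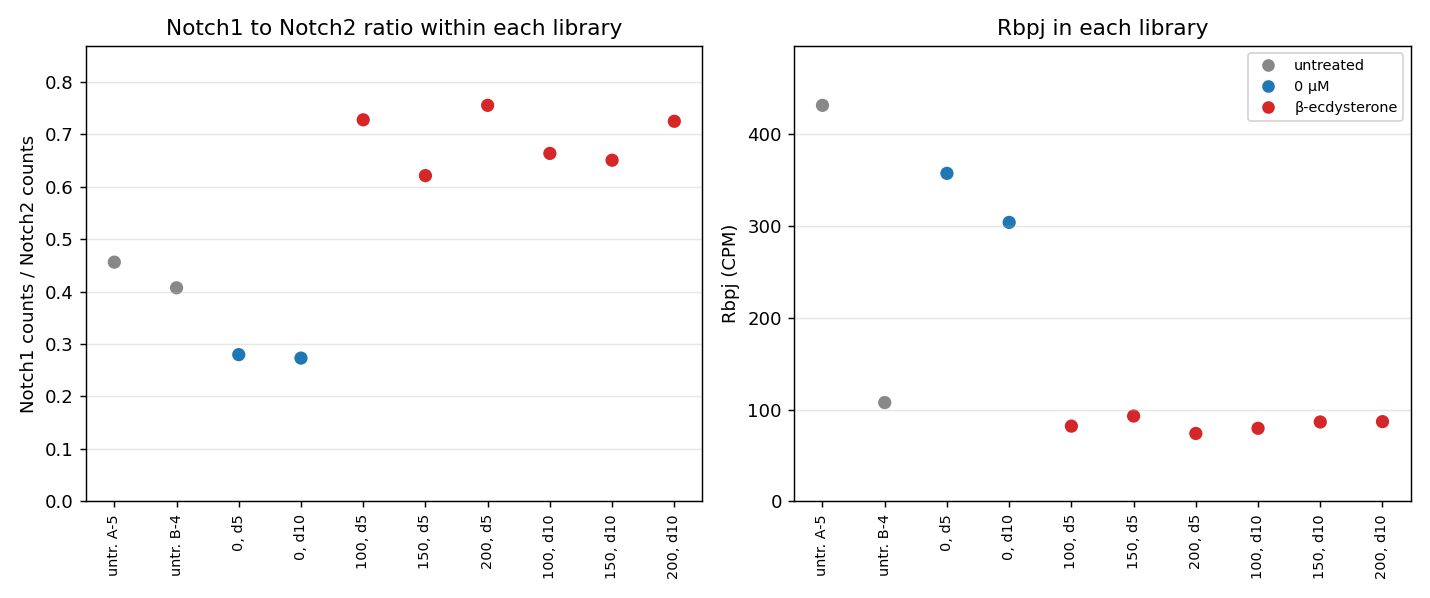
Left, Notch1 counts divided by Notch2 counts in each of the 10 libraries; right, Rbpj in CPM in the same libraries, both on linear axes from 0 with labels giving dose in μM and day. The ratio lies at 0.280 and 0.273 at 0 μM and at 0.621 to 0.755 in treated cells, while Rbpj lies at 357 and 304 CPM at 0 μM and at 74.0 to 92.9 CPM in treated cells.

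Notch3, a receptor known best from mural cells of vessels, was higher in treated cells by less than the fold limit. It measured 13.9 and 12.04 CPM at 0 μM, 18.3, 18.0 and 18.4 CPM on day 5 at 100, 150 and 200 μM, and 15.5, 22.8 and 21.5 CPM on day 10. All 6 treated libraries lay above both at 0 μM, and both untreated libraries lay below them, at 11.04 and 6.06 CPM. The log2 change was 0.55 ± 0.16 (edgeR adjusted p = 0.0183), a 1.46-fold difference. With each library left out in turn it ran from 0.37 to 0.73, and its adjusted p did not stay under 0.05 over all 18 alternatives. On day 10 alone the log2 change was 0.73 ± 0.22 (edgeR adjusted p = 0.0315), and on day 5 it was 0.38 ± 0.21 (edgeR adjusted p = 0.227). Set against A-5 and B-4 alone, treated cells differed by a log2 change of 1.16 (edgeR adjusted p = 0.0107).

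Notch4, a receptor known from endothelium, was scarce, with 44 to 117 counts a library in treated cells and at 0 μM. It measured 2.30 and 1.68 CPM at 0 μM and 1.32 to 2.71 CPM in treated cells, with a median of 1.79 CPM. The groups overlapped, and the log2 change of -0.08 ± 0.30 did not pass the test (edgeR adjusted p = 0.852). The ratio of treated to 0 μM was 0.657 among the deeper libraries and 1.37 among the others, on opposite sides of 1.

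**Figure D3:**
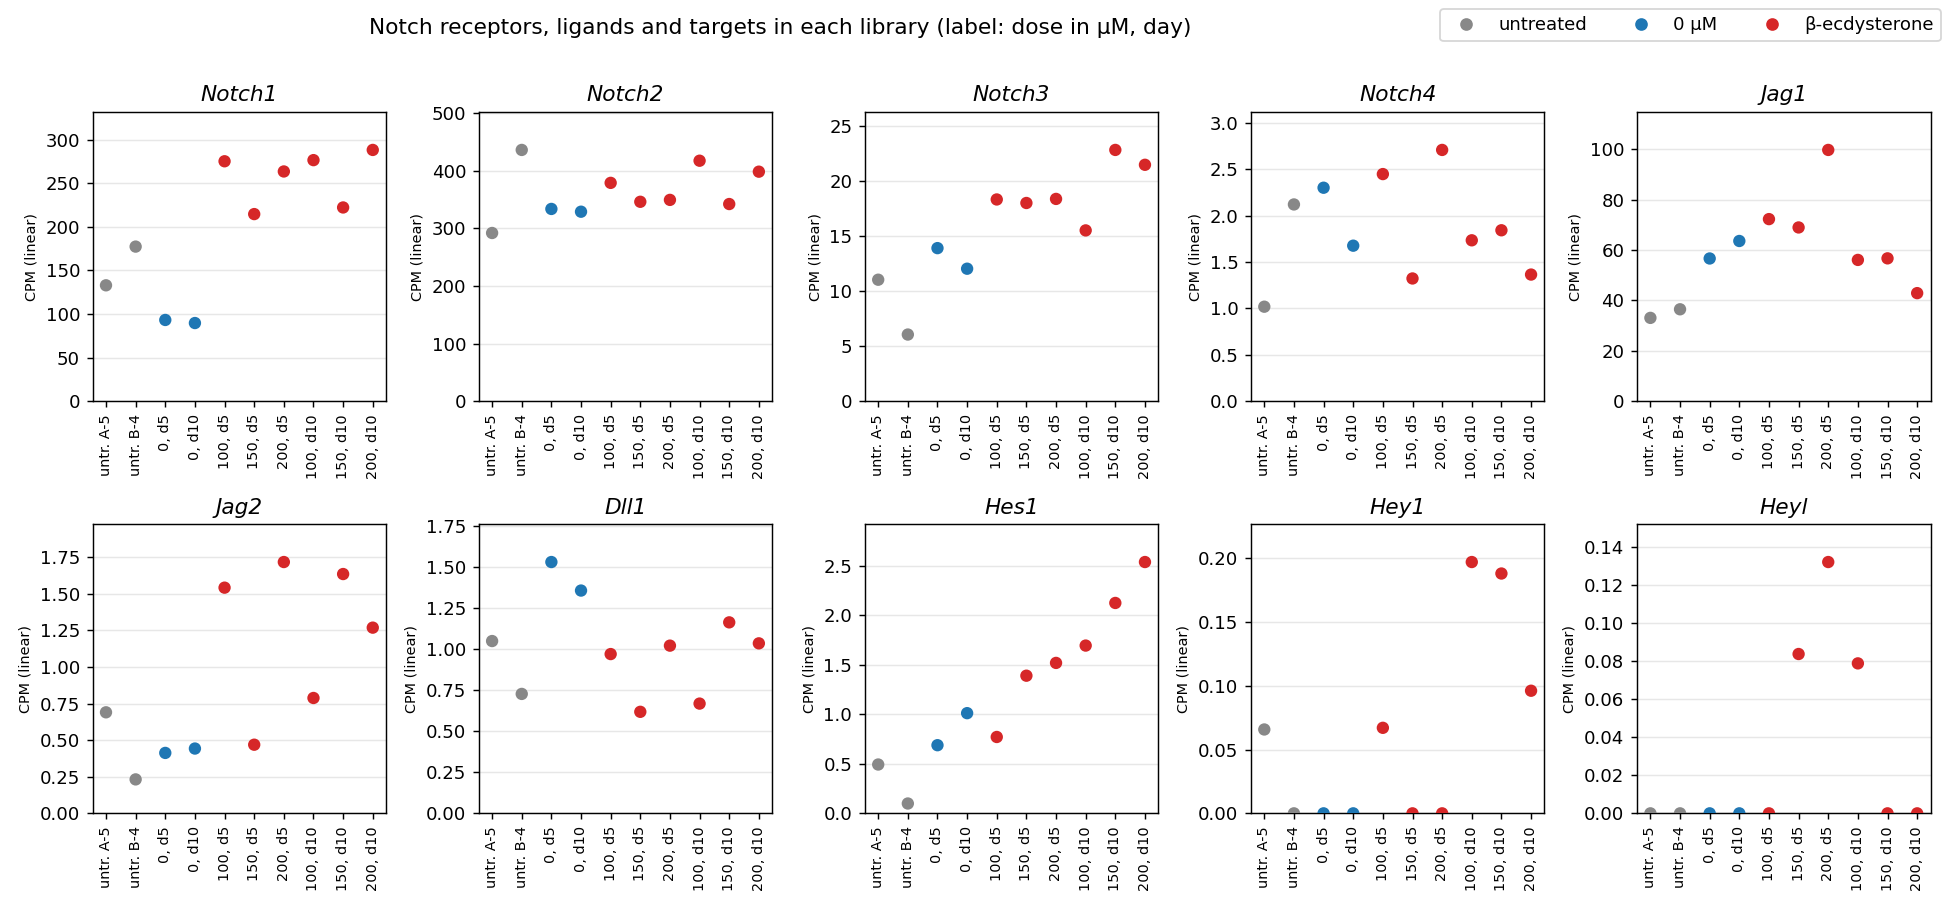
Level in CPM (linear axes from 0, scaled separately for each gene) of the 10 genes in each library, with labels giving dose in μM and day. For Notch1 the treated libraries lie between 215 and 288 CPM and those at 0 μM at 93.3 and 89.7 CPM, while Hey1 and Heyl are at 0 at 0 μM.

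Among the ligands, Jag2 rose, Jag1 showed no change that passed the test, and Dll1 was lower in value without passing it. Jag2, a Jagged ligand, was scarce. It had 21 and 14 counts at 0 μM, which correspond to 0.413 and 0.443 CPM. Treated cells held 46, 28 and 52 counts on day 5 at 100, 150 and 200 μM (1.54, 0.469 and 1.72 CPM) and 20, 87 and 66 counts on day 10 (0.788, 1.63 and 1.27 CPM). All 6 treated libraries lay above both at 0 μM, but the library at 150 μM on day 5 lay close to them. The untreated libraries held 0.690 and 0.232 CPM. The log2 change was 1.51 ± 0.54, a 2.86-fold difference (edgeR adjusted p = 0.0437). That p lay just under the threshold, and leaving out any of 6 of the 8 libraries moved it above: without the 0 μM library of day 5 (edgeR adjusted p = 0.18) or of day 10 (0.178), without the treated libraries at 100 μM on day 5 (0.0699), 200 μM on day 5 (0.0788), 200 μM on day 10 (0.0683) or 150 μM on day 10 (0.07). The ratio of treated to 0 μM was 2.72 among the deeper libraries and 3.05 among the others.

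Jag1, the main ligand in these cells, measured 56.7 and 63.6 CPM at 0 μM. In treated cells it measured 72.3, 69.0 and 99.7 CPM on day 5 at 100, 150 and 200 μM, and 56.1, 56.7 and 42.9 CPM on day 10. The day 5 values lay above both libraries at 0 μM, whereas the day 10 values lay below that of the same day. Over both days the log2 change was 0.07 ± 0.20 (edgeR adjusted p = 0.788), and it turned to -0.30 without the 0 μM library of day 5 and to -0.03 without the treated library at 200 μM on day 5. The log2 change was 0.49 ± 0.23 on day 5 (edgeR adjusted p = 0.156) and -0.30 ± 0.22 on day 10 (edgeR adjusted p = 0.338). Both untreated libraries, at 33.1 and 36.5 CPM, lay below all of the others. Their mean was 34.8 CPM, beside 66.1 CPM in treated cells. Over the 18 alternatives, some of which use the untreated libraries, the log2 change ran from -0.30 to 0.92.

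Dll1, a Delta-like ligand, had 78 and 43 counts at 0 μM, or 1.53 and 1.36 CPM. Treated cells held 17 to 62 counts, or 0.619 to 1.17 CPM with a median of 0.997 CPM. All 6 treated values lay below both at 0 μM, and the log2 change of -0.67 ± 0.31 did not pass the test (edgeR adjusted p = 0.105). The untreated libraries, at 1.05 and 0.729 CPM, lay inside the treated range.

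Hes1, a repressor that Notch switches on in many cell types, was higher in treated cells by just under the fold limit. It had 35 and 32 counts at 0 μM, or 0.688 and 1.01 CPM. Treated cells held 23, 83 and 46 counts on day 5 at 100, 150 and 200 μM (0.771, 1.39 and 1.52 CPM) and 43, 113 and 132 counts on day 10 (1.69, 2.12 and 2.54 CPM). In treated cells 5 of 6 libraries lay above both at 0 μM, and the library at 100 μM on day 5 lay between them. The untreated libraries held 15 and 3 counts, or 0.4928 and 0.0994 CPM. The log2 change was 0.95 ± 0.33, a 1.93-fold difference (edgeR adjusted p = 0.0398). The ratio of treated to 0 μM was 2.93 among the deeper libraries, with the 0 μM library of day 5, and 1.31 among the others, with that of day 10. The p over all libraries lay just under the threshold, and the adjusted p did not stay under 0.05 over all 18 alternatives. With each library left out in turn, the log2 change ran from 0.82 to 1.07. Hes1 passed both limits without the treated library at 100 μM on day 5 (log2 change 1.07, edgeR adjusted p = 0.0142), and without that at 100 μM on day 10 (1.001, edgeR adjusted p = 0.0401).

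Hey1 and Heyl, HEY-family repressors that also respond to Notch, were barely detected. Hey1 had 24 counts over all 10 libraries: 2, 0 and 0 on day 5 and 5, 10 and 5 on day 10 in treated cells at 100, 150 and 200 μM, 0 in both libraries at 0 μM, and 2 and 0 in the untreated ones. Heyl had 11 counts, in 3 treated libraries only: 5 and 4 at 150 and 200 μM on day 5 and 2 at 100 μM on day 10. A count of 0 at 0 μM allows up to 0.0589 CPM on day 5 and 0.0948 CPM on day 10, counting error only, so no fold is given for either gene.

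**Figure D4:**
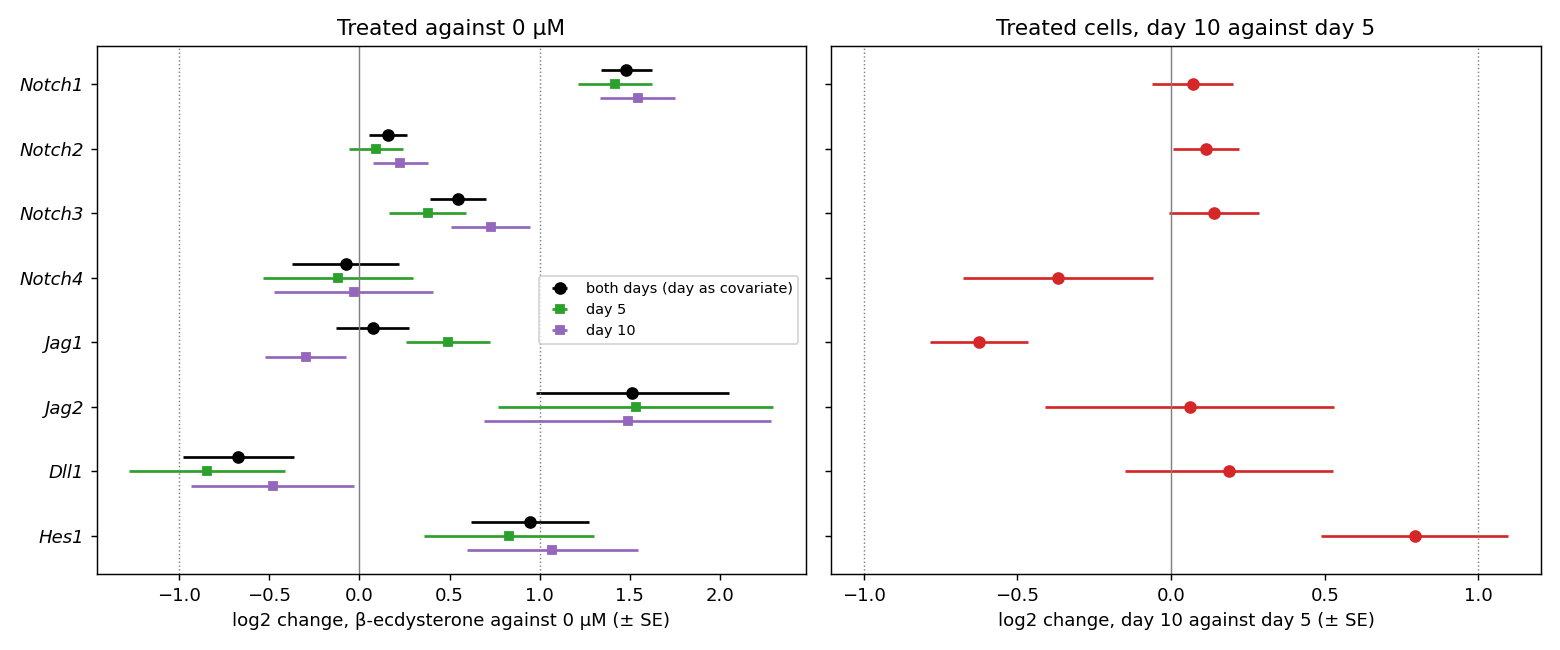
Left, log2 change of treated cells against 0 μM (± SE) for the 8 tested genes, over both days (circles) and for each day (squares); right, log2 change of day 10 against day 5 in treated cells (± SE), with dotted lines at the fold limit of 1. Notch1 lies near 1.5 on the left on both days, Jag2 has the same size with a wide error, and Jag1 has opposite signs on the days.

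Markers of the osteoblast and of other cells moved with treatment beside these changes, and their counts are read against the 13.4% of all genes called higher and 5.98% called lower. Of 10 osteoblast markers 4 rose, Runx2, Sp7, Alpl and Ibsp, and 1 fell, Dmp1. Spp1, osteopontin, was lower within the fold limit (log2 change -0.56 ± 0.18, edgeR adjusted p = 0.0325). It lay at 1710 and 1728 CPM at 0 μM and at 803 to 1651 CPM in treated cells. Bglap, Col1a1, Col1a2 and Phex did not pass the test. Runx2 and Sp7 are transcription factors of the lineage, and Sp7 lay at 6.03 and 5.03 CPM at 0 μM and at 53.0 to 134 CPM in treated cells. Alpl, alkaline phosphatase, lay at 0 and 0.0632 CPM at 0 μM and at 16.3 to 65.0 CPM in treated cells. Ibsp, bone sialoprotein, lay at 0.668 and 0.853 CPM at 0 μM and at 73.9 to 809 CPM in treated cells. The sum over the 10 markers, mostly collagen, overlapped, at 16800 to 33950 CPM in treated cells and 21860 and 26430 CPM at 0 μM. The summed level of 8 endothelial markers was 6.24 to 8.79 CPM in treated cells, 2.14 and 2.31 CPM at 0 μM and 3.88 and 2.58 CPM in A-5 and B-4, and 3 of 6 tested rose (Cdh5, Tek and Vwf). Vwf was the largest part of that sum, at 3.32 to 5.84 CPM in treated cells. Pecam1, Esam and Tie1 did not pass the test, with log2 changes of 0.75 ± 0.33, 0.79 ± 0.55 and -0.98 ± 0.65. The sum of 8 mural or smooth muscle markers was 1400 to 2476 CPM in treated cells and 1425 and 2003 CPM at 0 μM, and 2 of 7 tested rose (Myh11 and Des). Cspg4 was lower within the fold limit (log2 change -0.66 ± 0.19, edgeR adjusted p = 0.018). Macrophage markers summed to 31.8 to 63.3 CPM in treated cells and 17.4 and 30.2 CPM at 0 μM, a sum carried by Lyz2, the 1 of 3 tested that rose, with Tyrobp at 0 throughout. The other tested macrophage markers had log2 changes below 0 that did not pass the test, -0.94 ± 0.78 for Csf1r and -0.46 ± 0.23 for Cd68.

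All 6 proliferation markers, among them Mki67 and Ccnb1, fell, from a sum of 1686 and 1882 CPM at 0 μM to 429 to 913 CPM in treated cells. Adipocyte markers summed to 2.63 to 5.70 CPM in treated cells against 1.90 and 2.14 CPM at 0 μM, with 1 of 4 tested higher (Lep) and Cfd at 0 in every library. Skeletal muscle markers summed to 1.06 to 2.31 CPM against 0.275 and 0.379 CPM, with 1 of 2 tested higher (Ckm). Chondrocyte markers had overlapping sums, 28.2 to 100.0 CPM against 50.8 and 68.0 CPM, carried by Col2a1, and 1 of 3 tested rose (Comp, log2 change 1.87 ± 0.23, edgeR adjusted p = 0.000183). The part of these markers in the Notch results was not tested.

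Day 10 was compared with day 5 in the 6 treated libraries, 3 doses on each day, to ask how these genes differed with culture time. Of 8 genes tested, 0 were called by edgeR, beside 1.05% of 16020 genes in either direction, and DESeq2 and limma called none of the 8 either. Limma, which adds 1 to each FPKM, could not have called Jag2, Dll1 or Notch4 at their low levels. An edgeR unadjusted p under 0.05 was found for 2 of the 8, Jag1 and Hes1, beside 2930 of the 16020 genes. Jag1 had a mean of 80.3 ± 16.9 CPM on day 5 and 51.9 ± 7.80 CPM on day 10 (SD, n = 3 each). Its log2 change of -0.62 ± 0.16 did not pass the test (edgeR adjusted p = 0.0734). Hes1 had a mean of 1.23 ± 0.3995 CPM on day 5 and 2.12 ± 0.421 CPM on day 10, and a log2 change of 0.79 ± 0.31 that did not pass the test (edgeR adjusted p = 0.206). Notch1, at 251 ± 32.1 and 262 ± 35.2 CPM, had a log2 change of 0.07 ± 0.13 that turned to -0.05 with library totals as the scaling, which moved the median log2 change of all genes to -0.13 (edgeR adjusted p = 0.832). At 0 μM, with 1 library a day and no test, Jag1 went from 56.7 to 63.6 CPM and Hes1 from 0.688 to 1.01 CPM between day 5 and day 10.

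The effect of treatment was not shown to differ between the days for any of the genes. In a model with 4 groups of dose status and day, 0 of 8 were called by edgeR, beside 0.0119% of 16794 genes, and DESeq2 and limma also called 0 of 8. Here too limma could not have called Jag2, Dll1 or Notch4. Only Jag1 among the 8 had an edgeR unadjusted p under 0.05, beside 1395 of the 16794 genes. The effect on Jag1 was lower on day 10 than on day 5 by 0.79 ± 0.32 on the log2 scale, a log2 difference of -0.79 (edgeR adjusted p = 0.558). For Notch1 the difference was 0.13 ± 0.27 (edgeR adjusted p = 0.956). For Jag2 it was -0.04 ± 1.07, an error so wide that a difference of either sign could go undetected. Each day has 1 library at 0 μM, which is taken to vary like the treated ones.

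A linear trend over 100, 150 and 200 μM, with day as a covariate, was called for 0 of 8 genes by edgeR, DESeq2 and limma, and edgeR called 0% of 16020 genes. Of the 8 genes, 1 had an edgeR unadjusted p under 0.05, beside 380 of the 16020 genes. That gene was Hes1, whose level was in the order of the doses on both days, at 0.771, 1.39 and 1.52 CPM on day 5 and 1.69, 2.12 and 2.54 CPM on day 10. Its slope was 0.75 ± 0.33 log2 units per 100 μM (edgeR unadjusted p = 0.0498, adjusted p = 0.996). Notch1 had a slope of 0.00 ± 0.17, which took either sign among the alternatives (edgeR adjusted p = 1), and its values at 150 μM lay below those at both other doses on each day. The libraries at 150 μM also held the most counts of each day, 57220036 and 58218009, and the part of depth in these Notch1 values was not tested. Notch3 had a slope of 0.23 ± 0.18 (edgeR adjusted p = 0.996).

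A list of 72 other genes of the pathway, grouped by role, was read in treated cells against 0 μM. Among 62 tested, 5 were called higher and 4 lower, and their median log2 change was -0.02. With no fold limit, 11 were higher and 16 lower, beside 22.6% of all genes higher and 20.8% lower. The shares called with the fold limit are read against the same 13.4% and 5.98% of all genes. Of 10 receptor cleavage genes, for furin, the ADAM proteases and γ-secretase, none was called, and their log2 changes lay between -0.22 and 0.65. Pathway genes without a call are named after their values were seen. Among the cleavage genes only Aph1b, a γ-secretase subunit, passed the p alone (0.65 ± 0.16, edgeR adjusted p = 0.0079). Ligand ubiquitination (5 tested) and glycosylation (4 tested) also had no called gene, with 1 higher and 2 lower past the p alone in each.

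In the nuclear complex and corepressors, Rbpj fell and Tle1 rose among 18 tested. Rbpj encodes the DNA-binding partner through which cleaved Notch acts and which represses in its absence. It measured 357 and 304 CPM at 0 μM, and 82.0, 92.9 and 74.0 CPM on day 5 and 79.6, 86.5 and 86.8 CPM on day 10 in treated cells at 100, 150 and 200 μM. The groups did not overlap, and the treated libraries lay close together, at 83.6 ± 6.60 CPM (SD, n = 6). Of the untreated libraries A-5 had 431 CPM and B-4 had 108 CPM. The log2 change was -1.99 ± 0.10 (edgeR adjusted p = 1.1e-06), and it kept its call under all 18 alternatives, from -2.13 to -1.69. GENCODE M21 lists 2 processed pseudogenes of Rbpj that have no row in the deposited table, so reads from near-identical copies could be counted with it and its level is uncertain to that extent.

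Tle1, a Groucho-type corepressor that HES proteins recruit, measured 23.6 and 22.3 CPM at 0 μM and 49.5 to 65.4 CPM in treated cells, with a median of 56.8 CPM. All treated values lay above those at 0 μM (log2 change 1.32 ± 0.12, edgeR adjusted p = 3.4e-05). B-4, however, held 75.6 CPM, above every treated library, and against A-5 and B-4 alone the log2 change was 0.13 (edgeR adjusted p = 0.782). The other members of the group that passed the p alone stayed within the fold limit. Among them Kat2b, Ctbp1, Ctbp2, Maml1, Hdac2 and Hdac1 were lower, with log2 changes of -0.78 to -0.33, and Kat2a was higher by 0.31.

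Among other HES/HEY relatives and targets, 2 rose and 1 fell of 10 tested. Bhlhe40, a basic helix-loop-helix repressor related to HES proteins and known from the circadian clock, measured 71.9 and 83.9 CPM at 0 μM and 27.1 to 36.4 CPM in treated cells (log2 change -1.24 ± 0.11, edgeR adjusted p = 3.1e-05). Its relative Bhlhe41 went the other way, from 27.9 and 22.4 CPM to between 50.7 and 102 CPM (log2 change 1.38 ± 0.26, edgeR adjusted p = 0.0022). Against the untreated libraries, with 38.4 CPM in A-5 and 124 CPM in B-4, the sign of Bhlhe41 turned, to -0.28 (edgeR adjusted p = 0.653). Snai1, a repressor of epithelial genes, rose from 48.2 and 59.1 CPM to between 81.2 and 135 CPM, with a log2 change at the edge of the fold limit (1.01 ± 0.21, edgeR adjusted p = 0.0041), which fell to 0.77 without the 0 μM library of day 5 (edgeR adjusted p = 0.064) and under the limit, to between 0.94 and 0.97, without the treated libraries at 100 or 200 μM on day 5 or 150 μM on day 10. Of the atypical ligands, Dlk2, which can bind Notch without the usual activating domain, fell from 15.6 and 21.7 CPM to between 3.90 and 8.91 CPM (log2 change -1.60 ± 0.30, edgeR adjusted p = 0.00198), and its call was lost without the 0 μM library of day 10 (-1.24, edgeR adjusted p = 0.0566).

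The other 3 called genes had a mean under 5 CPM and are named here after their values were seen. Dll4, a Delta-like ligand known from endothelium, had 14 and 3 counts at 0 μM and 10 to 61 in treated libraries (log2 change 2.03 ± 0.51, edgeR adjusted p = 0.00963), and without the 0 μM library of day 10 its adjusted p was 0.0911. Dtx1, a ubiquitin ligase that acts on Notch, had 5 and 4 counts at 0 μM and 6 to 76 in treated libraries (2.69 ± 0.73, edgeR adjusted p = 0.0139), with an adjusted p of 0.112 and 0.0682 without the 0 μM library of day 5 and day 10. Dll3, a ligand that acts within the cell, had 22 and 8 counts at 0 μM and 0 to 8 in treated libraries (-2.30 ± 0.70, edgeR adjusted p = 0.0229). In the comparison of days, in the test of the difference and in the dose trend, edgeR called 0 of 61, 62 and 61 tested genes of the list.

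**Figure D5:**
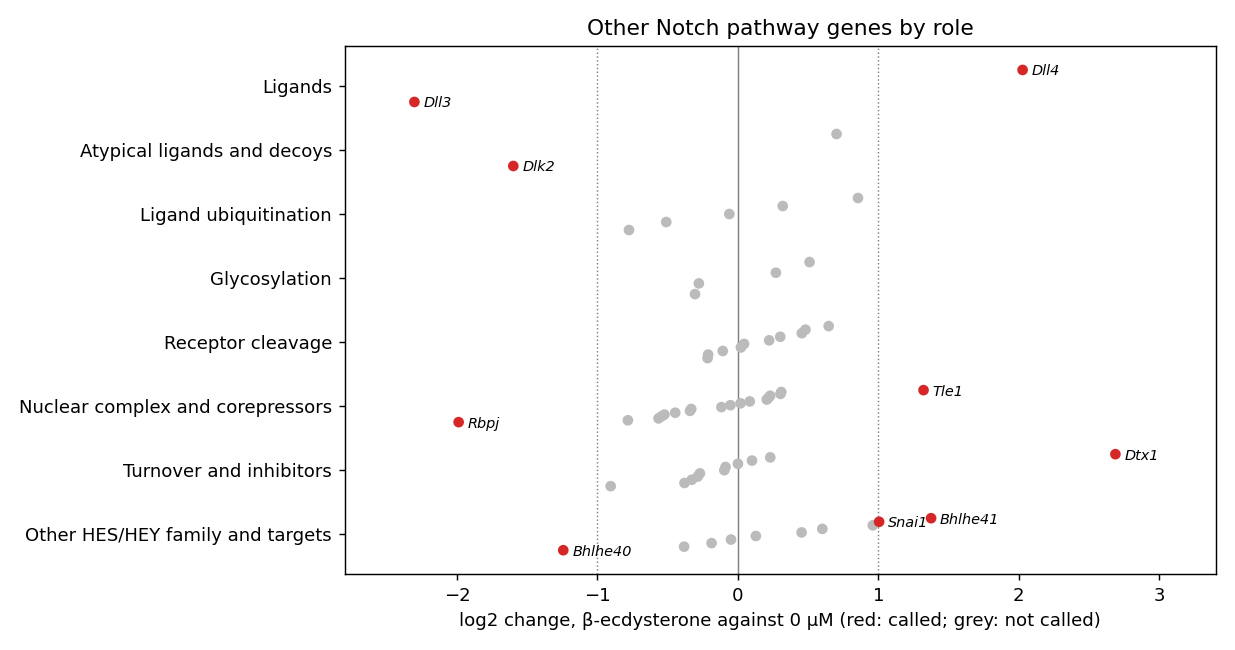
Log2 change of treated cells against 0 μM for the 62 tested genes of the pathway list, by role, with called genes in red and named and dotted lines at the fold limit of 1. Receptor cleavage lies between -0.22 and 0.65, and Rbpj and Tle1 stand apart in the nuclear group at -1.99 and 1.32.

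Among the 3 genes whose levels followed Notch1 most closely over the 10 libraries, of 10389 with a mean of at least 5 CPM, were Mxd4 (Pearson r = 0.991), a partner of MAX, and Ptprg (0.984), a receptor tyrosine phosphatase. Those nearest to Jag2 were Pdk2 (0.958), a kinase of pyruvate dehydrogenase, C4b (0.904), a complement component, and Kctd11 (0.887). These values describe 10 libraries that share their treatment groups and depth, and over the 8 libraries without the untreated ones the nearest 3 genes shared 0 of 3 with these for either Notch1 or Jag2. Mxd4 rose from a mean of 115 CPM at 0 μM to 505 CPM in treated cells (log2 change 2.13 ± 0.16, edgeR adjusted p = 1.2e-05). Kctd11, in contrast, had a log2 change of 0.24 ± 0.11 that did not pass the test (edgeR adjusted p = 0.108).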

How the data were processed

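RNA of MC3T3-E1 cells was sequenced as mRNA after oligo(dT) selection in 10 libraries. The authors deposited a gene table holding read counts per gene, used here as deposited, and FPKM for each library. The submitters' processing notes name HISAT2 2.0.4 and GATK 3.2-2; the counting tool and the genome build are not given in the sources used here. Columns of the authors' own group comparisons were not used.

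Counts were tested with edgeR 4.0.16 (R 4.3.3) by the quasi-likelihood test, with TMM scaling, the edgeR expression filter (minimum count 10) and Benjamini-Hochberg adjustment over all genes tested, in 6 treated libraries and 2 at 0 μM. The study's methods state 3 samples for RNA extraction, but each dose and day has 1 library here, so doses and days served as replicates. DESeq2 1.42.0 and limma 3.58.1 on log2(FPKM + 1), with a mean FPKM of at least 0.1, were alternatives, with other scalings, filters, covariates and each library left out. A model with depth class (above or below 40000000 counts) was added after the data were seen. The fitting code was tested on simulated data. Pearson correlations used log2 CPM. Levels rest on 27108562 to 58218009 counts a library, and floors of 3 counts cover counting error only.

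All 10 members are named. Other pathway genes are named where called with a mean of at least 5 CPM over the 8 libraries, and the 3 genes nearest in pattern for each called member; other pathway genes that the text names were chosen after their values were seen. Members and lists were chosen with earlier results of these data known. Some items that these rules would name are not reported here.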

Additional observations from a re-analysis of the deposited data

Results flagged for a closer look

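Notch1 measured 133 CPM in the untreated library A-5 and 177 CPM in B-4, which entered no main comparison, and both values lay above the 93.3 and 89.7 CPM of the libraries at 0 μM and below every treated library. What sets these libraries apart from those at 0 μM beyond the missing time is not given in the labels. In none of the 10 genes did a treated library stand apart from the other 5 by Dixon's test.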

How the results depend on the processing

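Of 18 alternatives for treated against 0 μM, 17 kept the call of Notch1, 10 that of Jag2 and 18 that of Rbpj. The number of members called higher, 2, was 1 with limma on log2(FPKM + 1), 4 with no fold limit and 1 to 3 with each library left out. Against the untreated libraries alone, Notch3 and Hes1 were called, whereas Notch1 and Jag2 were not. The pathway list, with 5 higher and 4 lower, gave 2 higher with limma, 11 higher and 16 lower with no fold limit, 2 higher and 1 lower against the untreated libraries alone, 1 higher with them added to 0 μM, and 3 to 6 higher with each library left out. Jag2 had a log2 change of 0.17 with limma (adjusted p = 0.152) and 1.41 against the untreated libraries (edgeR adjusted p = 0.131), and Hes1 had 2.49 and was called there (edgeR adjusted p = 0.0248). Limma adds 1 to each FPKM, so genes under 1 FPKM in every library could not reach a log2 change beyond 1. Jag2, Dll1, Notch4, Dll4 and Dtx1 lay at such levels, so limma could not have called them at this limit. Beyond this, the cause of these changes was not tested.

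Signs turned for these log2 values. Against the untreated libraries Notch4 was 0.26, Dll1 0.038 and Bhlhe41 -0.28, and with them added Notch4 was 0.088. For day 10 against day 5, library totals gave Notch1 -0.052, Notch2 -0.010 and Jag2 -0.063, and limma gave Notch1 -0.017 and Jag2 -0.011. For the dose trend, Notch1 was -0.0052 with DESeq2 and -0.0051 with its size factors, and Notch4 was 8e-04 with limma and 0.20 with depth class as a covariate. With each library left out, treated against 0 μM ran from -0.30 to 0.48 for Jag1 and -0.18 to 0.066 for Notch4. Day 10 against day 5 ran from -0.029 to 0.18 for Notch1, -0.37 to 0.38 for Jag2 and -0.024 to 0.37 for Dll1. The difference between days ran from -0.47 to 0.28 for Jag2 and -0.19 to 0.29 for Notch4. The dose slope ran from -0.16 to 0.16 for Notch1, -0.20 to 0.0017 for Notch2, -0.024 to 0.37 for Notch3, -0.66 to 0.16 for Notch4, -0.33 to 0.39 for Jag1, -0.25 to 1.30 for Jag2 and -5e-04 to 0.76 for Dll1. None of these passed its test.

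Over all genes, treated against 0 μM gave 2254 higher and 1005 lower, 528 and 614 with limma, 3790 and 3490 with no fold limit, 1078 and 460 against the untreated libraries, and 1286 and 453 with these added. Day 10 against day 5 gave 145 higher and 23 lower, between 18 and 333 and between 0 and 115 over the alternatives, and 18 and 0 without the treated library at 200 μM on day 5. The difference between days gave 0 and 2, up to 77 and 23 with a filter of at least 1 count in total. The dose trend gave 0 and 0, and 49 and 59 with that filter. The difference between days could not be fitted without a library at 0 μM. The labels share no replicate numbers between groups, but day 10 and day 5 can be paired by dose. With dose as a factor 0 members were called, Jag1 was -0.61 (edgeR adjusted p = 0.0955) and Hes1 0.81 (edgeR adjusted p = 0.118). Jag2, Dll1, Notch4 and Hes1 rest on few counts, 14 to 132 a library in treated cells and at 0 μM, and the part of depth in their spread was not tested.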

Other observations

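The untreated libraries A-5 and B-4 differed from each other in several genes of the pathway. Rbpj measured 431 CPM in A-5 and 108 CPM in B-4, Tle1 28.9 and 75.6 CPM, Bhlhe41 38.4 and 124 CPM, Snai1 49.6 and 88.6 CPM, and Dlk2 14.0 and 4.84 CPM. In Rbpj, Tle1 and Dlk2, A-5 lay nearer to the libraries at 0 μM and B-4 nearer to the treated ones. Bhlhe40 measured 69.4 and 51.0 CPM, both above the treated range. Hes1 had 15 and 3 counts, fewer than any library of the dose series. The summed level of the 6 proliferation markers was 1114 CPM in A-5 and 86.4 CPM in B-4, and its part in these values was not tested.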
